A study of Mus musculus with 13 samples.

Results

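The 33 genes described here carry excitation-contraction coupling and calcium handling in skeletal muscle: the calcium release channel of the sarcoplasmic reticulum and its voltage sensor, the proteins that hold the triad together, the calcium stores, pumps and buffers, the channels of the fibre membrane, the calcium-dependent kinases, and the genes of store-operated and mitochondrial calcium entry. They were chosen by function as a fixed list of gene symbols, with earlier results of these data known. All 33 are among the 19838 genes of each count table. In a muscle fibre, an action potential runs down the T-tubule and moves the voltage sensor (Cacna1s), which opens the release channel (Ryr1) in the facing membrane of the sarcoplasmic reticulum. Calcium leaves its store on calsequestrin, triggers contraction, is taken up by parvalbumin in fast fibres, and is pumped back by the ATPases of the Atp2a family. Vascular smooth muscle and heart use other members of the same families, so that several genes below come in pairs with a skeletal and a non-skeletal form.

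Counts came from 6 aorta and 7 gastrocnemius libraries of mice aged 88 weeks, on a mixed FVBxC57BL/6 background. The 4 aorta and 4 gastrocnemius libraries called Rosa26 had the genotype GFP-FOXM1dNdK-/- Rosa26-rtTAtg/+, and the 2 aorta and 3 gastrocnemius libraries called dNdK had GFP-FOXM1dNdKtg/+ Rosa26-rtTAtg/+. Both genotypes thus carried the doxycycline-dependent transactivator rtTA at the Rosa26 locus, and dNdK carried in addition a GFP-tagged form of FOXM1, a transcription factor of the cell cycle. The series asks what added FOXM1 activity does in old tissue, and the labels name no doxycycline, no sex and no sequencing run. They do not say that each library came from a mouse of its own, so the p-values measure the spread between these libraries.

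Libraries held 3919526 to 13683952 gene counts. Levels are given as CPM, a gene's counts scaled to the total of its library, and the floor of 3 counts came to between 0.219 and 0.765 CPM. Foxm1 itself gave 0 to 24 counts in any library (2 to 24 in aorta Rosa26, 2 to 5 in aorta dNdK, 1 to 3 in gastrocnemius Rosa26 and 0 to 3 in gastrocnemius dNdK), and whether its amplicon reads the transgene is not given in the sources used here. Gastrocnemius held 10 fast-fibre genes at a summed 153573 to 193773 CPM, against 19.4 to 76.8 CPM in aorta. The slow myosin Myh7 was at 0 in every gastrocnemius library, and had at most 3 counts in aorta. Other slow-fibre genes were counted in gastrocnemius, such as Tnni1 (0.807 to 19.9 CPM) and Tnnc1 (0.538 to 24.4 CPM). The aorta libraries held smooth muscle genes (Acta2 at 83.5 to 359 CPM, but Tagln at 0 or 1 count) beside much brown fat RNA (Ucp1 at 5525 to 10147.5 CPM). In 3 of them, Rosa26 1, Rosa26 2 and dNdK 2, heart muscle RNA was present: Myh6, the heart myosin, stood at 911, 394 and 685 CPM, and at 0 to 2.13 CPM in the other 3. Of the other heart genes listed, Myl7, Tnni3, Tnnt2, Mybpc3, Actc1, Nkx2-5 and Tbx5 were also higher in each of these 3. Nppa (0.205 to 0.726 CPM, against 0.405 to 1.28 CPM), Myl2 and Myl3 overlapped, and Nppb, Myl4 and Gja5 were near 0 in every aorta library. The gastrocnemius library dNdK 3 held fat RNA, with 6 white fat genes at a summed 8719 CPM against 203 to 656 CPM in the other 6 and Ucp1 at 701 CPM against at most 5.89. In such bulk samples, fewer cells of a type and less RNA per cell cannot be told apart.

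Most of the set differed strongly between the tissues, and no member was called between the genotypes. In Rosa26, 30 of the 32 members tested were lower in aorta than in gastrocnemius, 1 (Atp2a2) was higher and 1 (Casq2) was not called, where 27.5% and 31% of all 11058 genes tested were called lower and higher. Trdn, the gene of triadin, was the member not tested, with 0 to 2 counts in every library of both tissues. How well its amplicon reads Trdn is not given in the sources used here, so its absence from muscle cannot be concluded. The median log2 fold change of aorta over gastrocnemius was -6.87 over the 32 members and 0.08 over all genes tested. In dNdK, with 2 libraries against 3, 26 members were called lower (10.5% of 11426 genes) and Atp2a2 higher (5.22%), at a median of -6.54. Calls are adjusted p-values under 0.05 in the edgeR quasi-likelihood test, with Benjamini-Hochberg adjustment over all genes tested. Gastrocnemius held 32 members above 3 counts in every library, and aorta 19, with 6 members at 3 counts or fewer in every aorta library.

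**Figure D1:**
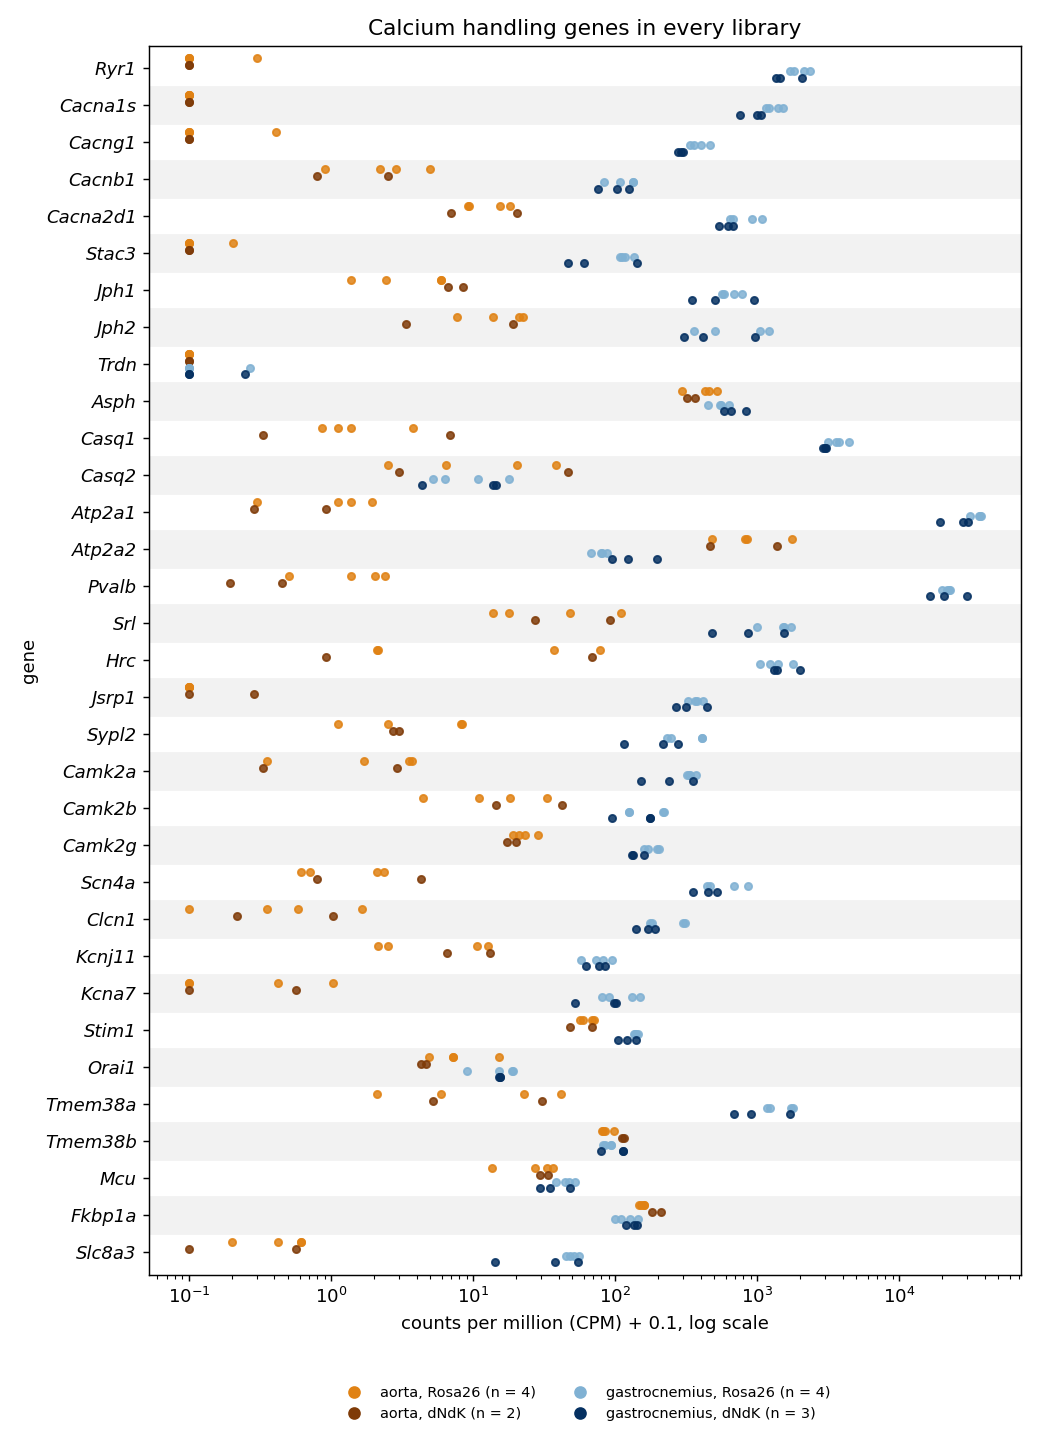
Level of each of the 33 genes in each of the 13 libraries, as CPM plus 0.1 on a log axis (1 row a gene, 1 point a library, coloured by tissue and genotype). Most genes sit in the gastrocnemius libraries far to the right of the aorta libraries, while Atp2a2 is to the left there, Casq2, Tmem38b, Asph, Orai1 and Mcu lie close together in both tissues, and the genotypes overlap in most rows.

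Because most members were lower in aorta together, their RefSeq promoters were read (build GRCm38.p6), whatever the size of each difference. A window of 300 bases, from 250 before to 50 after the transcription start, was listed for 21 of the 33 members. The E-box CAGCTG, a form of the CANNTG element that myogenic factors of the MyoD family are known to bind, was found in 9 of the 21 windows (42.9%) and in 15.4% of the 15669 windows of genes in the tables. These 9 belonged to Cacna1s, Jph2, Casq1, Atp2a1, Hrc, Sypl2, Orai1, Fkbp1a and Slc8a3. Of these, Fkbp1a (log2 fold change -0.50) and Orai1 (-1.73) had the smallest fitted differences between the tissues in Rosa26. The wider CANNTG was in 15 of 21 (71.4%, against 67.9%), and a MEF2 site, the element of another muscle factor, in 3 (Casq2, Pvalb and Clcn1, 14.3%, against 2.76%). The CArG box of serum response factor was in none of the 21 (1.4% of all), CATTCC in 3 (14.3%, against 13%) and TATAAA in 1 (4.76%, against 13.1%). Both strands were searched, CAGCTG matches are counted again under CANNTG, and a match is a description of the letters only. Ryr1, Cacnb1, Cacna2d1, Camk2b and Scn4a, all much lower in aorta, held none of the motifs. The 250 bases before the start are shown 5′ to 3′ on the gene's strand for the release channel, the fast pump, the fast calsequestrin, parvalbumin and the voltage sensor, as members with large tissue differences with and without a match, with CANNTG or MEF2 matches in capitals. They lie at chr7:29125152-29125401 (Ryr1, minus strand), chr7:126463074-126463323 (Atp2a1, minus strand), chr1:172219896-172220145 (Casq1, minus), chr15:78206401-78206650 (Pvalb, minus, the first of 2 listed) and chr1:136052561-136052810 (Cacna1s, plus). The start is that of the listed window. For Ryr1, Atp2a1 and Cacna1s the annotated gene begins inside the stretch, at 29125179, 126463103 and 136052806.
Ryr1: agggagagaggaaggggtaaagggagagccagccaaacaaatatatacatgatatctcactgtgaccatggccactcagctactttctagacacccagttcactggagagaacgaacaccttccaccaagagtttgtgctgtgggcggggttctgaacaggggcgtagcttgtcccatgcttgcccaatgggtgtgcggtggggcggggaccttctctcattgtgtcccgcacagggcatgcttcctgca
Atp2a1: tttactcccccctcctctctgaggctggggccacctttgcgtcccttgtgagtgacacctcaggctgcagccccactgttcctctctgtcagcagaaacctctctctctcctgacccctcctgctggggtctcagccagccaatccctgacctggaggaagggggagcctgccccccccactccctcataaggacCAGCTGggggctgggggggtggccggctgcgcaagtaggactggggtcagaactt
Casq1: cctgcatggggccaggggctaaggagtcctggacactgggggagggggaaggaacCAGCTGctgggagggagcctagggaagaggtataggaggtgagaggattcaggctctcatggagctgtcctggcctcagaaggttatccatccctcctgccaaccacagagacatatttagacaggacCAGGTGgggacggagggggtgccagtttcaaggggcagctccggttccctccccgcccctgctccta
Pvalb: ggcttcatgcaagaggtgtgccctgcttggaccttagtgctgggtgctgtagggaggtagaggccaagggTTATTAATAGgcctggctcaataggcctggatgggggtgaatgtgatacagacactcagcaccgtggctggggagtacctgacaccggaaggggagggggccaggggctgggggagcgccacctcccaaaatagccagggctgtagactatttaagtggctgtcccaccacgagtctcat
Cacna1s: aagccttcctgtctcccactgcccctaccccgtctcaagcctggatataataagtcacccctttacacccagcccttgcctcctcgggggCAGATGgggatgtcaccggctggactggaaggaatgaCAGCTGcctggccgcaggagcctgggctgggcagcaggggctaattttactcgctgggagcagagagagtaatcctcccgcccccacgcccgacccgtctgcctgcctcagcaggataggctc
In these stretches Ryr1 holds no capital letter, Atp2a1 holds a single CAGCTG, Casq1 and Cacna1s hold 2 CANNTG matches each, of which 1 is CAGCTG, and Pvalb holds no E-box and 1 MEF2 site.

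The voltage sensor and the release channel were skeletal genes with next to no counts in aorta. Ryr1, on chromosome 7, was at 1826, 1712, 2150.3 and 2370.5 CPM in gastrocnemius Rosa26 and at 1454, 2054 and 1348 CPM in dNdK. In aorta it had 2 counts in Rosa26 3 and 0 in the other 5 libraries. Pooled over the Rosa26 libraries, the level in gastrocnemius was 36463 times that of aorta (95% counting interval 10094 to 301094, counting error only), from 87364 counts against 2. Cacna1s, the pore and voltage sensor of the L-type channel, was at 1393, 1151, 1204 and 1525 CPM in gastrocnemius Rosa26 and at 993, 1061 and 761 CPM in dNdK, and had no count in any aorta library. Set against 3 counts over the 4 aorta libraries, it was at least 15597-fold higher in gastrocnemius Rosa26. Stac3, the adaptor that the sensor needs for coupling, was at 112, 135, 117 and 108 CPM in gastrocnemius Rosa26, and at 46.4, 143 and 60.7 CPM in dNdK, where the middle library lay above and the other 2 below all controls. In aorta it had 1 count in a single library, a ratio of 4267 in Rosa26 (766 to 168578). Cacng1, the gamma subunit of the skeletal channel, had 3 counts in aorta Rosa26 1 and none in the others, a ratio of 4655 (1593 to 22575).

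The channel subunits that other tissues share were detected in aorta as well. Cacna2d1, the alpha2delta subunit, was at 9.18 to 18.0 CPM in aorta Rosa26, as against 648 to 1073 CPM in gastrocnemius Rosa26, with a log2 fold change of -6.87 (SE 0.358, edgeR adjusted p = 2.07e-07). Cacnb1, the beta subunit, was at 0.81 to 4.85 and at 83.2 to 134 CPM, a log2 fold change of -6.41. The heart form of the release channel, Ryr2, which is no member, was at 1.53 to 23.2 CPM in aorta Rosa26 and at most 0.134 CPM in gastrocnemius Rosa26. Fkbp1a, the FK506-binding protein that sits on the release channel and is made in most tissues, was at 159, 153, 161 and 148 CPM in aorta Rosa26 and at 109, 145, 128 and 100.4 CPM in gastrocnemius Rosa26. On this plain CPM scale aorta was the higher tissue with no overlap, whereas the fit, which scales libraries by TMM, called it lower (log2 fold change -0.50, edgeR adjusted p = 0.0273). Scaled by library totals alone the estimate was 0.37, and the call was lost under 8 other alternatives, so no direction is given for Fkbp1a between the tissues.

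Scaling bears on every tissue difference in the set. TMM factors were 1.19 to 1.45 in aorta Rosa26 and 0.722 to 0.76 in gastrocnemius Rosa26, so fitted changes are more negative than ratios of CPM. With library totals alone the median of all genes moved from 0.08 to 0.96, the share of calls in Rosa26 that were higher in aorta from 53.0% to 82.8% (in dNdK from 33.1% to 68.4%), and the median of the members from -6.87 to -5.97. Members called lower in Rosa26 were then 26 in place of 30, without Fkbp1a, Asph, Orai1 and Tmem38b.

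Both junctophilins, which tie the T-tubule to the reticulum, were lower in aorta. Jph1, the skeletal form, was at 1.28 to 5.89 CPM in aorta Rosa26 and at 587, 781, 692 and 568 CPM in gastrocnemius Rosa26 (log2 fold change -8.25, SE 0.463). Jph2, the form of the heart, was at 7.65 to 22.4 CPM in aorta Rosa26 and differed by -6.48 (SE 0.533). Its gastrocnemius Rosa26 libraries stood far apart, at 1209.9, 501, 359.9 and 1052 CPM, and the dNdK libraries at 964, 416 and 307 CPM covered the same span. On the log2 scale Jph1 minus Jph2 ran from -1.48 to 1.18 over the 7 gastrocnemius libraries, so the order of the 2 genes' values turned from library to library. Asph, whose locus makes the triadin partner junctin besides a hydroxylase found in many tissues, was nearly as high in aorta (294 to 517 CPM in Rosa26) as in gastrocnemius (452 to 633 CPM), with a fitted log2 fold change of -1.21 (SE 0.244, edgeR adjusted p = 0.00169). These counts do not say which of its transcripts was read. Jsrp1, a triad protein, was at 324 to 413 CPM in gastrocnemius Rosa26 and had no count in aorta Rosa26 (at least 4365-fold higher in gastrocnemius), and Sypl2, the gene of mitsugumin 29, differed by -6.87.

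The calcium pumps showed an exchange of family members most plainly. Atp2a1, the calcium pump of fast fibres, was at 36443, 36859, 31272 and 37609 CPM in gastrocnemius Rosa26, and at 1.85, 1.29, 0.202 and 1.02 CPM in aorta Rosa26. Its log2 fold change was -15.85 (SE 0.679, edgeR adjusted p = 8.37e-08). Atp2a2, the pump of slow fibres, heart and smooth muscle, ran the other way: 67.9, 80.6, 79.0 and 87.2 CPM in gastrocnemius Rosa26 and 1760.5, 851, 825 and 485 CPM in aorta Rosa26, with no overlap. It rose by 2.75 on the log2 scale (SE 0.342, edgeR adjusted p = 7.11e-05), and was the member called higher in aorta in all 19 alternatives of the Rosa26 comparison. In dNdK the difference was 2.17 (SE 0.531, edgeR adjusted p = 0.0427), and this call was lost in 6 of 15 alternatives, among them without aorta dNdK 2 (1.15, edgeR adjusted p = 0.271). Atp2a1 minus Atp2a2 was 6.61 to 9.07 on the log2 scale in gastrocnemius and -12.52 to -8.72 in aorta, a description of the balance of the 2 amplicons and not of molecules.

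Casq1, the calsequestrin of fast fibres, was at 4454, 3572, 3784 and 3148 CPM in gastrocnemius Rosa26 and at 0.765 to 3.7 CPM in aorta Rosa26 (log2 fold change -11.93, SE 0.575). Casq2, the calsequestrin of heart and slow fibres, was low in both: 38.1, 20.2, 2.43 and 6.38 CPM in aorta Rosa26 and 5.11, 10.8, 17.9 and 6.24 CPM in gastrocnemius Rosa26, which overlap. Its estimate was -0.13 (SE 0.685, edgeR adjusted p = 0.881). The 2 high aorta values are those of the Rosa26 libraries with heart RNA, and without them Casq2 was called lower in aorta, at -2.08 (edgeR adjusted p = 0.0196), while 0.75 was estimated with library totals alone. Pvalb, the parvalbumin of fast fibres, was at 22375, 22804, 21641 and 20083 CPM in gastrocnemius Rosa26 and at 0.405 to 2.3 CPM in aorta Rosa26 (log2 fold change -14.77, SE 0.624). Hrc, a histidine-rich calcium-binding protein of the reticulum, and Srl, sarcalumenin, differed less on the fitted scale, by -6.40 and -5.82. Without the heart RNA libraries these became -10.26 and -7.36.

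The trimeric intracellular cation channels, which carry counter-current during calcium release, also come as a pair, of which the form of excitable tissue was the lower one in aorta. Tmem38a, the form of excitable tissue, was at 1181, 1720.3, 1795 and 1236 CPM in gastrocnemius Rosa26, and at 41.3, 22.8, 2.02 and 5.87 CPM in aorta Rosa26 (log2 fold change -7.24, SE 0.854). Tmem38b, the widespread form, was at 98.8, 84.8, 81.2 and 82.7 CPM in aorta Rosa26 and 82.3, 92.8, 84.4 and 94.0 CPM in gastrocnemius Rosa26. These ranges overlap almost wholly, and the call for Tmem38b (-0.89, edgeR adjusted p = 0.000977) rested on the scaling: with library totals alone its adjusted p was 0.910.

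Among the calmodulin-dependent kinases, Camk2a and Camk2b are best known from neurons and are also made in muscle, and Camk2g is widespread. Camk2a was at 338, 321, 369.9 and 331 CPM in gastrocnemius Rosa26 and at 3.6, 3.47, 1.62 and 0.255 CPM in aorta Rosa26 (log2 fold change -8.03). For Camk2b the values were 125, 219, 221 and 125 CPM in gastrocnemius Rosa26 and 18.1, 33.3, 4.35 and 11 CPM in aorta Rosa26 (-4.24). Camk2g was at 197, 169, 159 and 203 CPM against 23.1, 20.9, 28.4 and 18.9 CPM, and changed least of the 3, at -3.87 (SE 0.207). All 3 were called lower in aorta in both genotypes.

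Of the membrane channels and the exchanger, Scn4a, the sodium channel of the muscle action potential, had a log2 fold change of -9.62, Clcn1, the chloride channel of muscle, -9.51, Kcna7, a potassium channel, -9.16, and Slc8a3, a sodium-calcium exchanger, -8.03. Their aorta Rosa26 levels were at most 2.26 CPM, and their gastrocnemius Rosa26 levels 44.7 CPM or more. Kcnj11, the pore of the ATP-sensitive potassium channel, stayed visible in aorta (2.04 to 12.6 CPM in Rosa26) and differed by -4.32.

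Genes of calcium entry differed less. Stim1, the calcium sensor of the reticulum, was at 56.1, 68.9, 71.2 and 58.9 CPM in aorta Rosa26 and at 139.6, 136, 145 and 138 CPM in gastrocnemius Rosa26, a close-set group, with a log2 fold change of -2.0 (SE 0.164, edgeR adjusted p = 3.76e-06). Orai1, the channel that Stim1 opens, was at 4.83, 15.2, 7.08 and 7.14 CPM in aorta Rosa26 and at 19.0, 9.01, 18.7 and 15.2 CPM in gastrocnemius Rosa26, which overlap, and was called at -1.73. Mcu, the pore of mitochondrial calcium uptake, was at 33.2, 36.3, 27 and 13.5 CPM against 44.1, 46.9, 52.3 and 38.1 CPM, with no overlap, at -1.60. In dNdK, Mcu was not called (-0.84, edgeR adjusted p = 0.108), nor were Tmem38b, Fkbp1a and Casq2, in a comparison of fewer libraries. Hrc was not called there either (edgeR adjusted p = 0.0646), although its estimate was -6.08 with no overlap, and 7 of 15 alternatives called it.

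Other calcium genes, 97 from lists of the same pathways, showed no such common direction. Of the 93 in the tables, 75 were tested in Rosa26, and 21 were called higher and 35 lower in aorta, where 31% and 27.5% of all genes were. The counts of single lists below are to be read against the same shares. Over all the lists, the share called higher is near that of all genes, and the share called lower is above it. Of 9 genes of store-operated entry and the inositol trisphosphate receptors, 7 were higher, led by Itpr2, an inositol trisphosphate receptor, which heart and smooth muscle also make (470.5 ± 126.6 CPM in aorta Rosa26 and 16.3 ± 0.523 CPM in gastrocnemius Rosa26, SD, n = 4 each, log2 fold change 3.99), and Stimate (3.14), while Stim2 was lower (-1.63). Partners of the release channel were split: Sri, sorcin, and S100a1 were higher (1.86 and 1.00), and Calm2, a calmodulin gene, lower (-1.44). Of the 11 triad and T-tubule genes tested 8 were lower and none higher, with Tcap at -7.03. The channel subunit Cacng6 (-10.59) and Mrln (-11.18), whose product myoregulin restrains the pump of fast fibres, were lower too. Atp2a3, a pump of non-muscle cells, was higher (2.74). Of 15 genes of calcium signalling tested, 11 were lower, among them Mef2c (-5.35), a muscle transcription factor, and Ppp3ca (-2.95), a catalytic subunit of calcineurin. Mitochondrial genes went both ways, with Mcur1 and Letm1 higher (1.97 and 1.73) and Micu3 and Micu2 lower (-1.60 and -0.97). Calcium-binding proteins of the endoplasmic reticulum were called higher for 3 of 8 (Rcn1 at 1.26 and Rcn3 at 0.97 among them) and lower for Rcn2 (-0.85).

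Within aorta, many members were higher in the libraries that held heart RNA. Of the 24 members tested in aorta, 10 were higher in all 3 libraries with heart RNA than in all 3 without, and none was lower in all 3, where 11.9% of 11920 genes were higher and 5.77% lower in this manner. These libraries were set apart by Myh6, which is no member, and the comparison is a description with no test. Genes low in aorta could pass the filter through the heart RNA libraries, which favours the higher direction. Casq1, Camk2a and Scn4a passed in this way, with 0.233 to 1.01, 0.233 to 1.62 and 0.510 to 0.699 CPM in the libraries without heart RNA. Their share of reads on the first strand, described below, was above that of Rosa26 3 and Rosa26 4, as was that of dNdK 1. Hrc was at 78.8, 37.0 and 69.1 CPM in Rosa26 1, Rosa26 2 and dNdK 2, and at 2.02, 2.04 and 0.816 CPM in Rosa26 3, Rosa26 4 and dNdK 1, a ratio of means of 37.9. Casq2 was at 38.1, 20.2 and 46.3 CPM against 2.43, 6.38 and 2.91 CPM, a ratio of 8.93. The other 8 were Tmem38a (ratio 7.28), Casq1 (5.87), Camk2a (4.68), Scn4a (4.67), Srl (4.23), Kcnj11 (3.33), Camk2b (3.15) and Atp2a2 (2.24). Hrc, Casq2 and Atp2a2 are known heart genes. Stim1, Camk2g, Tmem38b, Fkbp1a, Asph, Mcu, Orai1 and Jph2 were not apart. Atp2a2 stood at 825, 485 and 464 CPM in the 3 libraries without heart RNA, above every gastrocnemius library.

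**Figure D2:**
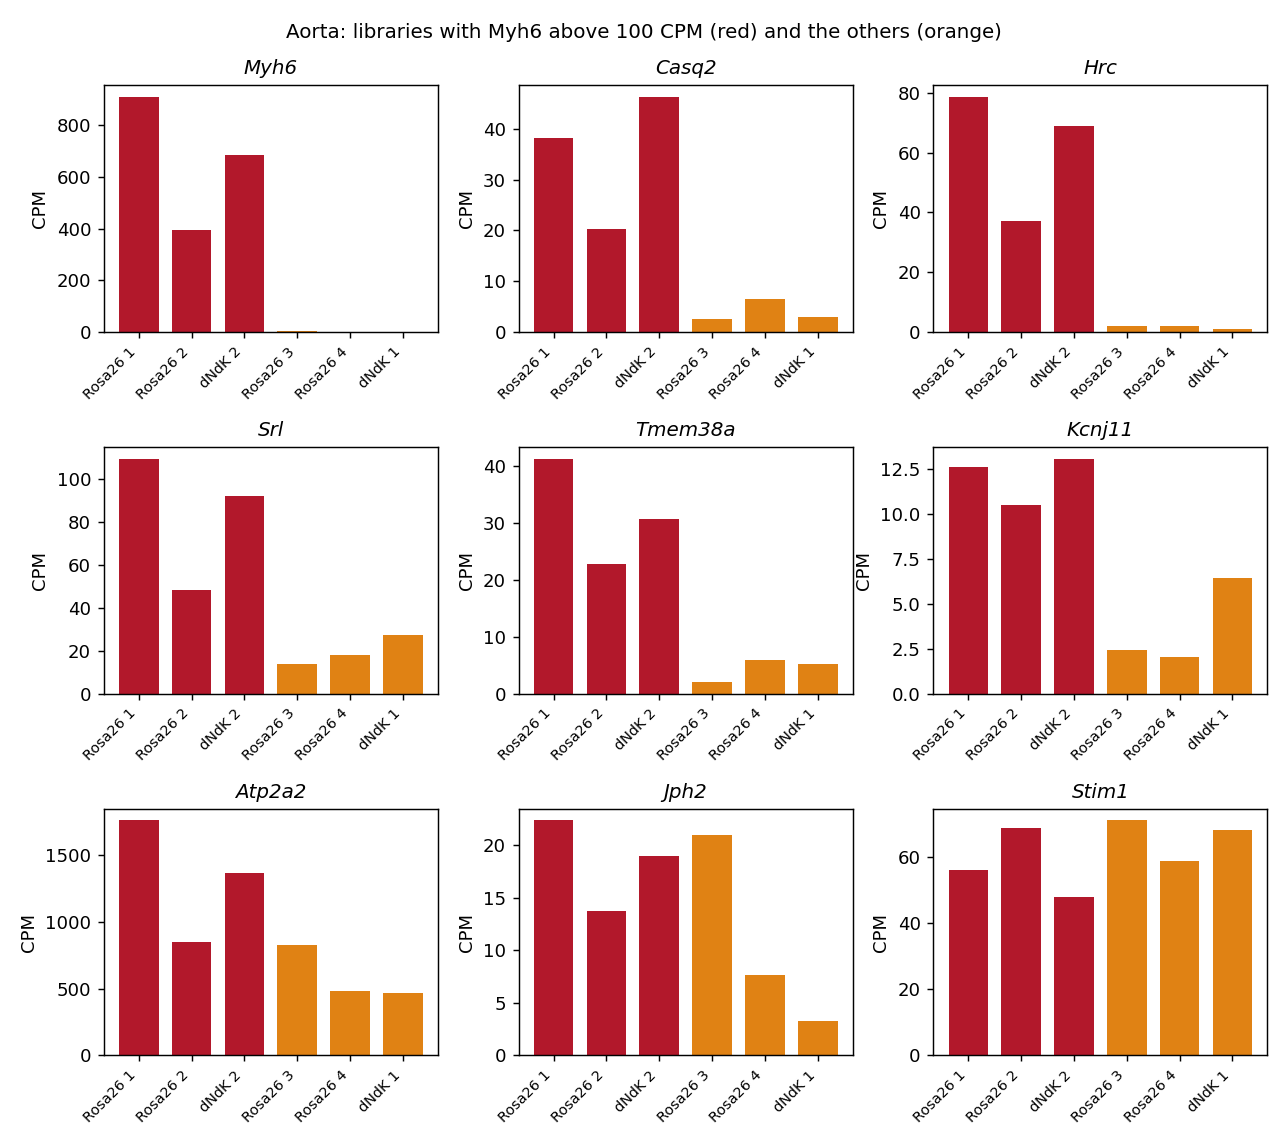
CPM of Myh6 and 8 members in the 6 aorta libraries (1 bar a library, axis from 0), with the 3 libraries above 100 CPM of Myh6 in red and the other 3 in orange. Casq2, Hrc, Srl, Tmem38a, Kcnj11 and Atp2a2 are higher in every red bar than in every orange bar, while Jph2 and Stim1 overlap.

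In gastrocnemius, which asks whether added FOXM1 changes calcium handling in old muscle, no member was called between dNdK (3 libraries) and Rosa26 (4). No gene of 10491 tested was called either (0%), although 792 had an unadjusted p under 0.05 in the edgeR test, and DESeq2 called 7 genes, of which none was a member. Most members had a lower estimate in dNdK: 26 of 32 were below 0 against 46.9% of all genes tested, with a median log2 fold change of -0.43 against 0.03. Unadjusted p-values under 0.05 were found for 4 members that were lower (2.12% of all genes) and 1 that was higher (5.43%), each with an edgeR adjusted p of 0.656. The 26 estimates are those of genes counted in the same libraries and are not independent of each other.

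**Figure D3:**
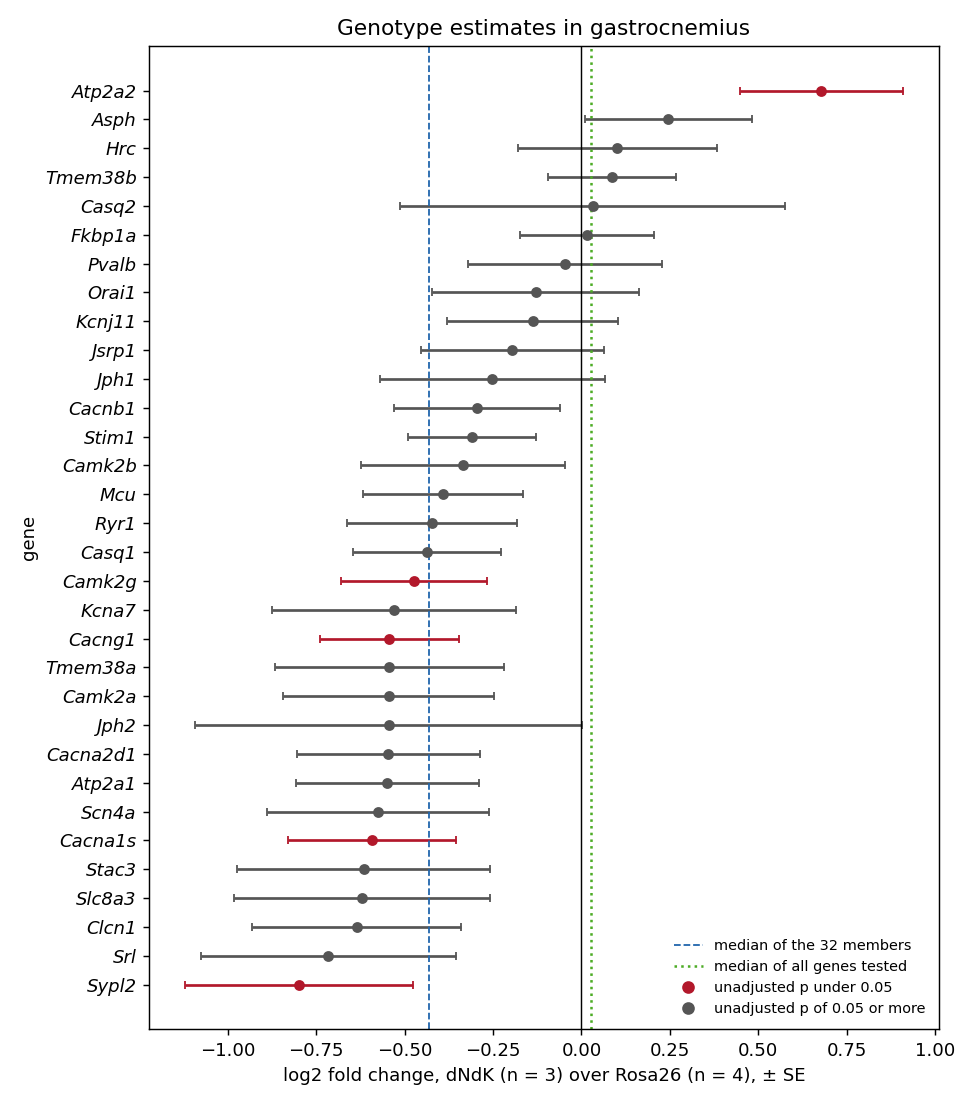
Log2 fold change of dNdK (n = 3) over Rosa26 (n = 4) in gastrocnemius for the 32 members tested, with bars of 1 SE, in order of size. Estimates run from -0.80 for Sypl2 to 0.68 for Atp2a2, 26 lie left of 0, and the medians of the members (dashed, -0.43) and of all genes tested (dotted, 0.03) are marked.

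The voltage sensor and its gamma subunit were among those 4. Cacna1s was at 993, 1061 and 761 CPM in dNdK, below all 4 Rosa26 libraries (1151 to 1525 CPM), with a log2 fold change of -0.59 (SE 0.237). Cacng1 was at 289, 278 and 303 CPM in dNdK against 403, 463, 357 and 336 CPM in Rosa26, again with no overlap, and at -0.54 (SE 0.196). Sypl2 was at 116, 278 and 218 CPM against 231, 411, 411 and 249 CPM, which overlap through dNdK 2 (-0.80, SE 0.321). Camk2g, the widespread kinase gene, was at 133, 161 and 132 CPM against 197, 169, 159 and 203 CPM (-0.47, SE 0.206). Atp2a2 ran the other way here too, at 124, 95.8 and 197 CPM in dNdK against 67.9 to 87.2 CPM in Rosa26, with no overlap and a log2 fold change of 0.68 (SE 0.230). Its fast counterpart Atp2a1 was at 30415, 28074 and 19248 CPM, all under the 31272 to 37609 CPM of Rosa26 (-0.55, SE 0.258). Casq1 was at 3013, 3034 and 2907 CPM, all under the 3148 to 4454 CPM of Rosa26 (-0.44, SE 0.209). In all, 4 members lay below Rosa26 with no overlap (Cacna1s, Cacng1, Casq1 and Atp2a1, where 1.31% of all genes did) and Atp2a2 above it (5.36%).

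**Figure D4:**
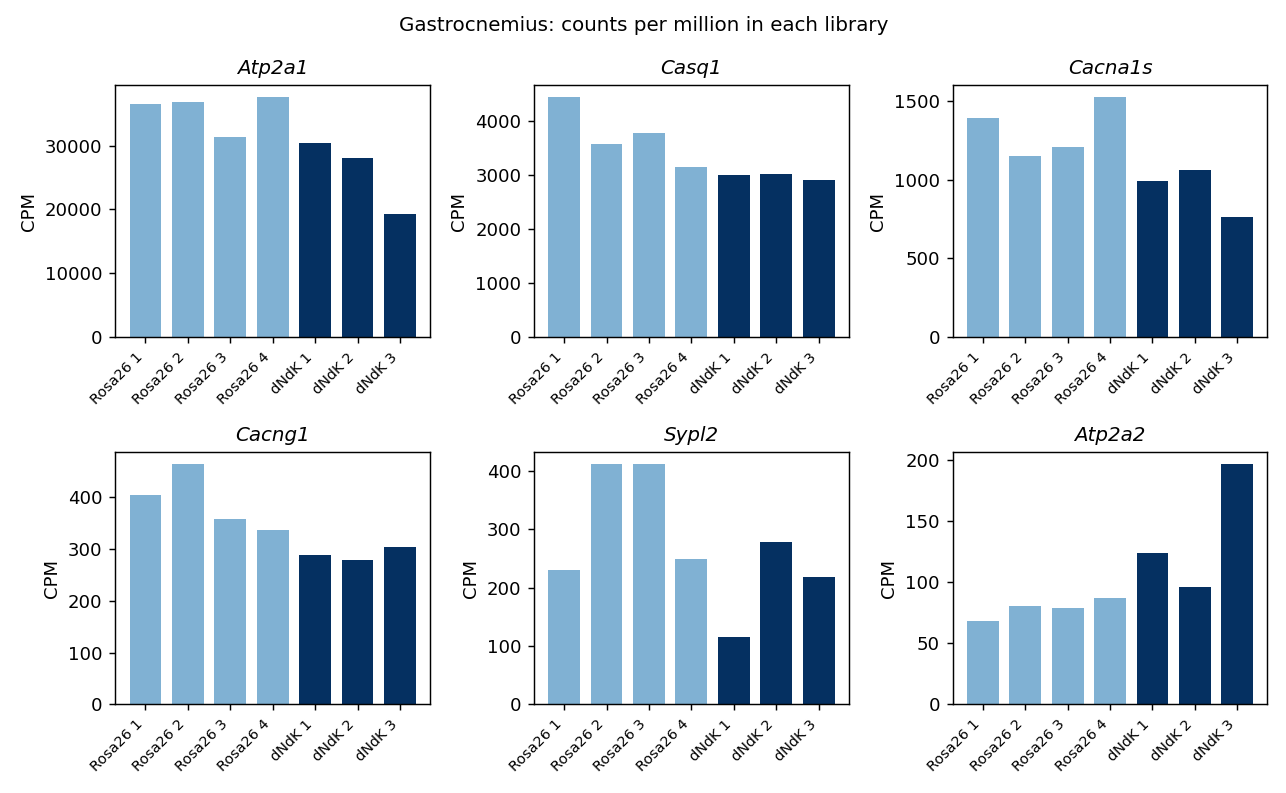
CPM of 6 members in the 7 gastrocnemius libraries (Rosa26 in light blue, dNdK in dark blue, axes from 0). Atp2a1, Casq1, Cacna1s and Cacng1 are lower in each dNdK bar than in each Rosa26 bar, Sypl2 overlaps, and Atp2a2 is higher in each dNdK bar, highest in dNdK 3 at 197.

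Most of the low values were those of dNdK 1 and dNdK 3. In dNdK 1, 20 of the 32 members lay below the lowest Rosa26 library and 5 above the highest, where 28.8% and 27.5% of all genes did. In dNdK 3, 23 lay below and 2 above (12.9% and 46% of all genes). In dNdK 2, 5 lay below and 5 above (12.3% and 25.8%). Ryr1, Cacna2d1, Stac3, Jph1, Srl, Sypl2, Camk2a, Camk2g, Clcn1, Stim1, Tmem38a, Mcu and Slc8a3 shared a pattern. Each was below every Rosa26 library in dNdK 1 and dNdK 3 and within or above the Rosa26 range in dNdK 2. Slc8a3, for example, was at 14.1, 54.6 and 37.9 CPM in dNdK 1 to 3 against 44.7 to 55.3 CPM in Rosa26. Values of some of these and of other members follow. Jph1 was at 346, 944 and 508 CPM in dNdK 1 to 3 (568 to 781 CPM in Rosa26), Camk2a at 239, 354 and 153 CPM (321 to 369.9) and Camk2b at 95, 177 and 177 CPM (125 to 221). Stim1 was at 106, 141 and 121 CPM (136 to 145), Mcu at 29.4, 48 and 34.9 CPM (38.1 to 52.3) and Orai1 at 15.2, 15.3 and 15.4 CPM (9.01 to 19). In this group Orai1 was nearly constant, and the other 5 were lowest in dNdK 1 or dNdK 3. Tmem38b was at 79.7, 113 and 114 CPM (82.3 to 94) and Casq2 at 14.4, 13.6 and 4.24 CPM (5.11 to 17.9). Jsrp1, Hrc and Asph lay above the Rosa26 range in dNdK 1. Pvalb was highest of all libraries in dNdK 1 (29834 CPM) and lowest in dNdK 3 (16387 CPM), with 20676 CPM in dNdK 2.

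These libraries also differed in what else they held. The library dNdK 3 was the one with fat RNA: all 6 white fat genes were higher there than in the other 6 gastrocnemius libraries, and its 10 fast-fibre genes summed to 153573 CPM against 177959 to 193773 CPM. Without dNdK 3 the median of the members was -0.26 and 23 estimates were below 0. Atp2a2 was then estimated at 0.44 and Cacna1s at -0.41, and of the 5 members above Cacng1 alone kept an unadjusted p under 0.05. Aorta libraries, which are rich in fat RNA, held Atp2a2 at 464 CPM or more. The library dNdK 1 had the highest sum of 5 slow-fibre genes (57.6 CPM, against 2.42 to 20.8 CPM in the other 6) and 6993 CPM of Actn3, a fast-fibre gene at 11842 to 14250 CPM elsewhere. The part of fat and of fibre type in the lower estimates was not tested.

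The gastrocnemius libraries also fell into sets that cross the genotypes. The share of reads on the first strand was 48.43% to 48.62% in Rosa26 2, Rosa26 3 and dNdK 2, and 46.60% to 47.53% in Rosa26 1, Rosa26 4, dNdK 1 and dNdK 3. What set these shares is not given in the sources used here. Of the 32 members, 6 (Cacnb1, Stac3, Jph1, Sypl2, Tmem38a and Mcu) did not overlap between the 2 sets, each being higher where the share was higher, against 13.5% of all genes in either direction. The part of all genes that was higher in the same set was not counted apart, so the 2 shares are not alike. Tmem38a was at 1720.3, 1795 and 1713 CPM in the first set and at 1181, 1236, 689 and 900.0 CPM in the second. Myh1, a fast myosin, followed the same split, at 6466 to 10704 CPM and 1559 to 3865 CPM. Within the first set (2 Rosa26 and 1 dNdK library) 19 of 32 members were lower in dNdK, where 41.7% of all genes were, with a median log2 ratio of -0.02 against 0.07 for all genes. Within the second (2 and 2) 23 were lower, where 34.3% of all genes were, with a median of -0.40 against 0.22. With the set as a covariate, 26 estimates were below 0, with a median of -0.43 and no member called.

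**Figure D5:**
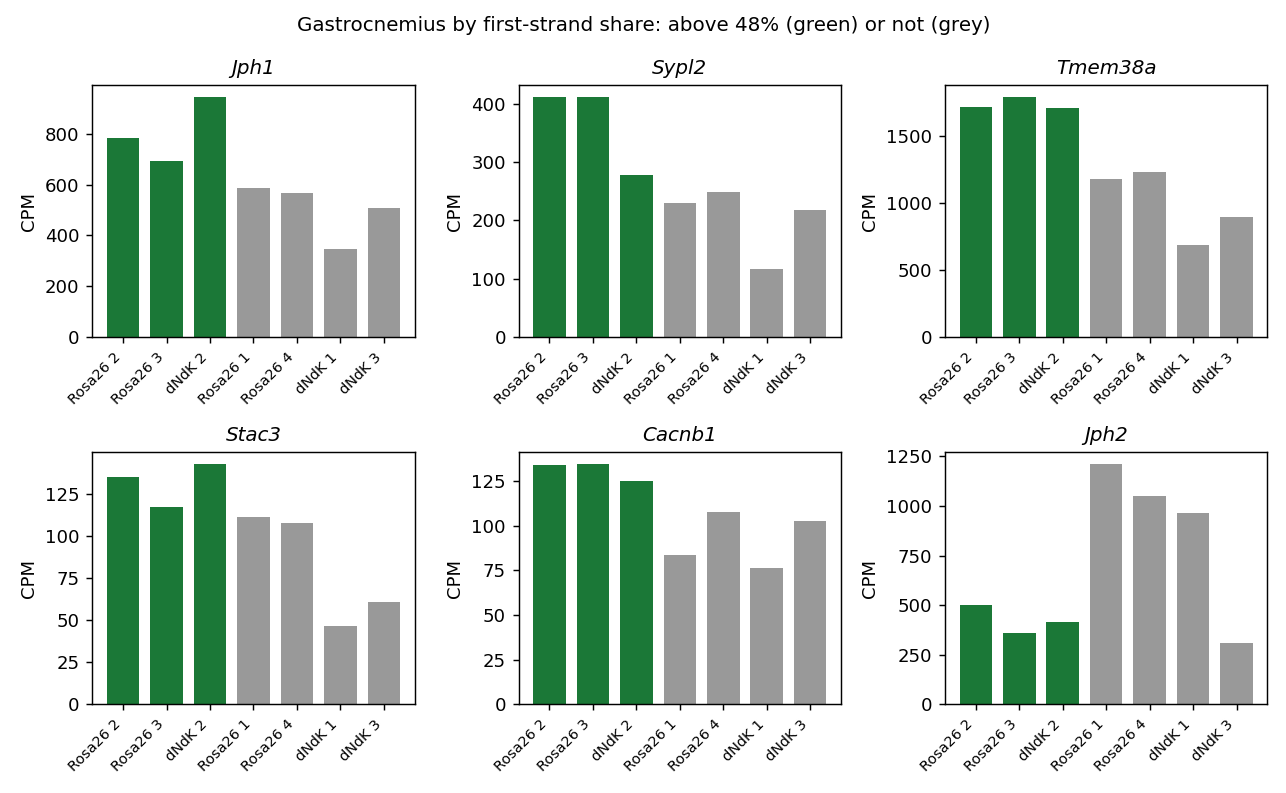
CPM of 6 members in the 7 gastrocnemius libraries, grouped by the share of reads on the first strand (above 48% in green, 3 libraries, otherwise grey, 4 libraries, axes from 0). Jph1, Sypl2, Tmem38a, Stac3 and Cacnb1 are higher in each green bar than in each grey bar, and Jph2 overlaps through dNdK 3.

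Of the other calcium genes of the pathway lists, 68 were tested in gastrocnemius and none was called, with 10 at an unadjusted p under 0.05 (6 lower and 4 higher, where 2.12% and 5.43% of all genes were). In dNdK, Mef2c (-0.61), Ppp3ca (-0.58), Hdac5 (-0.54), Cav3 (-0.57), Ank1 (-0.90) and Myom1 (-0.50) had lower estimates among these 10, and Itpr1 (0.89), Itpr2 (1.28), Stimate (1.37) and Calr (1.88) higher ones. Itpr2 was at 30.9, 15.7 and 87.3 CPM in dNdK against 15.6 to 16.9 CPM in Rosa26, with the highest value in dNdK 3, the library with fat RNA.

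In aorta no member was called between dNdK (2 libraries) and Rosa26 (4). Of 11920 genes tested 1 was called higher (0.00839%) and none lower (0%), and 713 had an unadjusted p under 0.05 (2.33% of genes higher and 3.65% lower). Of the 24 members tested, 10 had an estimate below 0, where 54.2% of all genes did, and the median was 0.17 against -0.05. This median ran from -0.77 to 0.56 over the alternatives, and was -0.34 without the 3 libraries with heart RNA. Tmem38b, the widespread cation channel, was at 116 and 111 CPM in dNdK against 81.2 to 98.8 CPM in Rosa26 (log2 fold change 0.51, SE 0.208). Fkbp1a was at 183 and 209 CPM against 148 to 161 CPM (0.47, SE 0.199). Both lay above all controls, as did Jph1 (6.53 and 8.41 CPM against 1.28 to 5.89 CPM), where 5.03% of all genes did. Pvalb was at 0.35 and 0.0934 CPM, from 3 counts and 1, against 0.405 to 2.3 CPM (-2.58, SE 1.07), and Orai1 at 4.2 and 4.58 CPM against 4.83 to 15.2 CPM, both below all controls (13.8% of all genes). The edgeR adjusted p of Tmem38b, Fkbp1a and Pvalb was 0.757. The share of reads on the first strand was 48.39% to 49.33% in dNdK 1, dNdK 2, Rosa26 1 and Rosa26 2. In Rosa26 3 and Rosa26 4 it was 46.34% to 46.37%. This split overlaps with genotype and with heart RNA, and these cannot be fully told apart. With the set as a covariate no member was called.

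The genotype difference was then compared between the tissues in a fit of all 13 libraries. No member and no gene of 12318 tested was called (0%), with 1044 genes at an unadjusted p under 0.05 in the edgeR test (1.92% higher and 6.56% lower) and 6 genes called by DESeq2. Pvalb (-2.47, SE 0.891) and Jsrp1 (3.17, SE 1.20) had unadjusted p-values under 0.05, each with an edgeR adjusted p of 0.583. Pvalb had 1 to 19 counts in any aorta library, and the estimate of Jsrp1 rested on 2 counts in aorta dNdK 2, the aorta library where it was seen. For Atp2a2, whose estimate in gastrocnemius was above 0 and not called, the difference was -0.59 (SE 0.623).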

How the data were processed

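RNA of snap-frozen aorta and gastrocnemius was read on a transcriptome amplicon panel with Ion Torrent sequencing, per the labels. Raw read counts per gene, as deposited by the authors, came from STAR 2.5.2b on mm10 (GRCm38.p6), with edgeR 3.28.1 and limma 3.42.2 also named, per the submitters' processing notes. Reads assigned to genes were 86.66% to 91.42% of each table, and rows for unassigned reads stayed out of library totals. An amplicon reads a single stretch of a gene and carries no molecular identifier, so levels of different genes are not compared, and counting intervals and floors cover counting error only.

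Counts of either strand were fitted with the quasi-likelihood test of edgeR 4.0.16 in R 4.3.3, after its default filter (minimum count 10, minimum total 15) and TMM scaling. Benjamini-Hochberg adjustment ran over all genes tested, at 0.05. The scripts were tested on simulated data. An SE is the absolute log2 fold change over the root of its F statistic. Alternatives were other scalings, DESeq2 1.42.0, no filter, each strand alone, each library left out, blocks, all libraries in 1 fit, the libraries without heart RNA (Myh6 at most 100 CPM) and, added after seeing the data, the strand set as a covariate. Numbers in the sample titles were not taken to pair the libraries. Numbers in the deposited names (30, 50, 53 and 142) occur in both tissues for 4 pairs, whose deviations correlated at r = 0.16 to 0.36 across genes, and were used as a block. All 33 members were counted, and values in every library are given by role and for members with an unadjusted p under 0.05 between genotypes. Other calcium genes are named by list, at most 2 a direction with the largest changes. Members, lists and rules were chosen with earlier results of these data known. Promoter sequences are from RefSeq, and 12 members without a listed promoter window are given by name only.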

Additional observations from a re-analysis of the deposited data

Results flagged for a closer look

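The 33 genes in 2 tissues gave 66 groups of 4 Rosa26 libraries. Groups at 0 throughout, those of Cacna1s, Trdn and Jsrp1 in aorta, could not be flagged. In 4 groups a single library stood apart from the others by Dixon's criterion at 95%, where chance gives about 1 group in 20. Ryr1 was at 0.202 CPM (2 counts) in aorta Rosa26 3. Cacng1 was at 0.308 CPM (3 counts) and Stac3 at 0.103 CPM (1 count) in aorta Rosa26 1. Trdn was at 0.170 CPM (2 counts) in gastrocnemius Rosa26 2. The other 3 libraries of each of these groups were at 0, and all 4 values lie at or under the floor of 3 counts. With 3 libraries at 0 any count is flagged, so the rate of 1 in 20 does not apply to these groups.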

How the results depend on the processing

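Depth limits the genes at 3 counts or fewer in aorta, and 2 aorta dNdK libraries limit both comparisons that use them. Members called were 27 to 31 over 19 alternatives of the Rosa26 tissue comparison (31 as reported), and 0 in all 16 of the gastrocnemius genotype comparison. Where an arm was left with 1 library, it was taken to vary like the others. Fitted with the title number as a replicate block, 28 members were below 0 in gastrocnemius. With the number of the deposited names as a block, Fkbp1a lost its tissue call (-0.37, edgeR adjusted p = 0.134), no other member's Rosa26 tissue call changed, and the dNdK tissue comparison could not be fitted. The cause of the changes below was not tested.

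In the Rosa26 tissue comparison, Casq2 turned to 0.75 with library totals only and 0.0457 on the first strand, and ran from -0.92 to 0.28 with single libraries left out. Fkbp1a turned to 0.37 with library totals only. In dNdK, library totals gave 0.15 for Tmem38b and 0.57 for Fkbp1a, and Fkbp1a ran from -0.149 to 0.0794 with single libraries left out. Casq2 in dNdK was -0.80 with the replicate block and -2.54 without heart RNA libraries, and ran from -2.54 to 1.48 with single libraries left out.

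Genes called between the tissues in dNdK (1801) became 3141 with DESeq2, 1145 on the first strand, 3035 with the replicate block, 3334 with all 13 libraries, 369 without heart RNA libraries, 630 with the strand set, and 322 (without aorta dNdK 1) to 3126 (without gastrocnemius dNdK 3) with single libraries left out. Between genotypes in gastrocnemius (0), DESeq2 called 7 and leaving out single libraries gave 0 to 3. Between genotypes in aorta (1), DESeq2 called 13, either strand alone 0, the replicate block 163, all 13 libraries 0, the fit without heart RNA libraries 30, the strand set 3, and single libraries left out 0 to 1. For the difference between tissues (0), DESeq2 called 6 and the block of name numbers 206, of which 0 were members.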

Other observations

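Sln, the gene of sarcolipin, a small inhibitor of the calcium pumps that is no member, was looked at after its values were seen. It stood at 25.6, 314, 101 and 19.5 CPM in gastrocnemius Rosa26 1 to 4 and at 10.5, 10.9 and 709 CPM in gastrocnemius dNdK 1 to 3. The highest value was that of dNdK 3, the library with fat RNA, and the genotypes overlapped. In aorta it stood at 195, 116 and 239.6 CPM in Rosa26 1, Rosa26 2 and dNdK 2, the libraries with heart RNA. It was at 0 in aorta Rosa26 3, Rosa26 4 and dNdK 1.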
